A study of Mus musculus with 48 samples.

Results

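The KAT6A knockout was compared with E14 at day 2 of neuronal differentiation in 6 of the study's 48 libraries, 3 of each genotype, chosen by their labels, and all genes in the deposited table were considered. E14 is a mouse embryonic stem cell line. The KAT6A knockout, KAT6A-/- in the labels, was derived from it, and E14 itself was the wild type. The sources used here do not say how many clones the knockout line represents or how the gene was edited. All 6 samples were grown in serum with LIF, a cytokine that holds stem cells in the pluripotent state, and were then put into suspension without LIF, where they form aggregates called embryoid bodies. Retinoic acid was added only on day 4, so none of these samples had received it. Total RNA was depleted of ribosomal RNA and sequenced, and the 3 replicates of each genotype came from independent differentiation experiments.

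KAT6A (also called MOZ) is a lysine acetyltransferase of the MYST family that works in a complex with a BRPF scaffold protein, an ING protein and MEAF6 and acetylates histone H3. Its amino-terminal winged helix binds unmethylated CpG-rich DNA, and the enzyme is best known for sustaining transcription of developmental regulators such as Hox genes and for its part in blood stem cells. In the days after LIF is withdrawn, embryonic stem cells leave the naive state, marked by factors such as KLF4 and REX1, and pass through a formative state, marked by OTX2, FGF5 and the DNA methyltransferase DNMT3B, before they commit to a lineage.

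In the KAT6A knockout at day 2 the RNA of 2 genes, Kat6a and the imprinted gene Grb10, fell. Among genes higher in the knockout 0 were called by edgeR (0%), against 940 at an unadjusted p under 0.05 and 19 called by DESeq2. Grb10 RNA was at 29.2% and Kat6a RNA at 49.9% of the E14 mean. In the KAT6B knockout and the double knockout of the same day, Grb10 was also below every E14 library. Around these calls, all 20 genes of the naive pluripotency list had fold changes above 0 and all 13 genes of the formative epiblast list had fold changes below 0. None of those 33 genes passed the test individually. The lists were chosen with earlier results of these data known, so the shared directions are not independent support.

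Total counts were 35.7 to 43.6 M (mega) in the KAT6A knockout libraries and 34.4 to 51.1 M in the E14 libraries, and levels below are in CPM, counts per M counts after scaling by trimmed means. Fold changes are edgeR log2 values with their standard errors, KAT6A knockout over E14. A gene is called at an adjusted p under 0.05 by edgeR's quasi-likelihood test with Benjamini-Hochberg adjustment, over the 19594 genes tested. E14 replicate 3 stood apart from the other E14 libraries. On the first principal component of the 6 libraries, which took 31.3% of the variance, the KAT6A knockout libraries were at 42.8, 10.5 and 24.5, and the E14 libraries at -44.7, -41.7 and 8.56 for replicates 1, 2 and 3. Brachyury (T), which marks primitive streak, was at 36.5, 1.47 and 20.3 CPM in the knockout and at 0.986, 2.02 and 35.1 CPM in E14, so E14 replicate 3 shared high T with knockout replicates 1 and 3. The pluripotency gene Pou5f1 was at 471 to 596 CPM in the knockout and at 482 to 517 CPM in E14, and Sox2 at 241 to 352 CPM in the knockout and 298 to 320 CPM in E14. Both core factors of the labelled stem cells were abundant in every library. Among markers of other cell types, the trophoblast gene Elf5 was at 0.316, 0.0258 and 0.331 CPM in the knockout and at 0.087, 0 and 0.138 CPM in E14.

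Kat6a (ENSMUSG00000031540, GRCm39 chromosome 8, 23349551 to 23433275, plus strand) was measured at 64.5, 73.8 and 58.1 CPM in the 3 KAT6A knockout libraries, against 129, 131 and 133 CPM in the 3 E14 libraries. The knockout libraries were all far below the E14 libraries. Kat6a fell by 1.00 on the log2 scale (SE 0.14, 95% interval -1.31 to -0.70, adjusted p = 0.0330 by edgeR). The count covers the whole gene, so RNA that remains does not show whether an edited product is made. Gm45555 overlaps Kat6a on the same strand and held 136 to 237 counts in the knockout libraries and 138 to 191 in the E14 libraries.

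Kat6b, the close paralog of Kat6a, was at 256, 224 and 213 CPM in the knockout and at 165, 162 and 236 CPM in E14. E14 replicate 3 lay among the knockout libraries. The fold change of 0.30 (SE 0.16, 95% interval -0.05 to 0.65, adjusted p = 0.529 by edgeR) did not pass the test. The partners of KAT6A had fold changes near 0: Brpf1 had -0.06, Brd1 0.01, Brpf3 0.27, Ing5 0.12, Ing4 -0.11 and Meaf6 0.13, each with a standard error of 0.11 to 0.19. Over the 14 genes of KAT6 complexes and the MYST family, 1 was called (Kat6a), and the median fold change was 0.07.

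Grb10 encodes an adaptor protein that restrains insulin and growth factor receptor signalling. It is imprinted, expressed from the maternal allele in most mouse tissues and from the paternal allele in neurons, and different promoters serve the parental alleles. The gene (ENSMUSG00000020176, GRCm39 chromosome 11, 11880508 to 11988683, minus strand) had 14.4, 19 and 12.2 CPM in the KAT6A knockout libraries, against 56.0, 57.7 and 42.7 CPM in the E14 libraries. Every knockout library was below every E14 library. The means were 15.2 ± 3.45 CPM in the knockout and 52.1 ± 8.24 CPM in E14 (SD, n = 3 each). Grb10 fell by 1.78 on the log2 scale (SE 0.23, 95% interval -2.27 to -1.28, adjusted p = 0.0254 by edgeR).

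The 2 calls were 0.0102% of the genes tested. DESeq2, a second count test, called both and 33 more (35 genes, 19 higher and 16 lower). In the 6 fits that left out 1 library each, Kat6a was called in 0 (adjusted p = 0.0781 to 0.365 by edgeR) and Grb10 in 1, the fit without E14 replicate 3 (adjusted p = 0.0395 to 0.365 over the 6 fits by edgeR). The fold changes in those fits were -1.10 to -0.93 for Kat6a and -1.97 to -1.64 for Grb10.

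**Figure D1:**
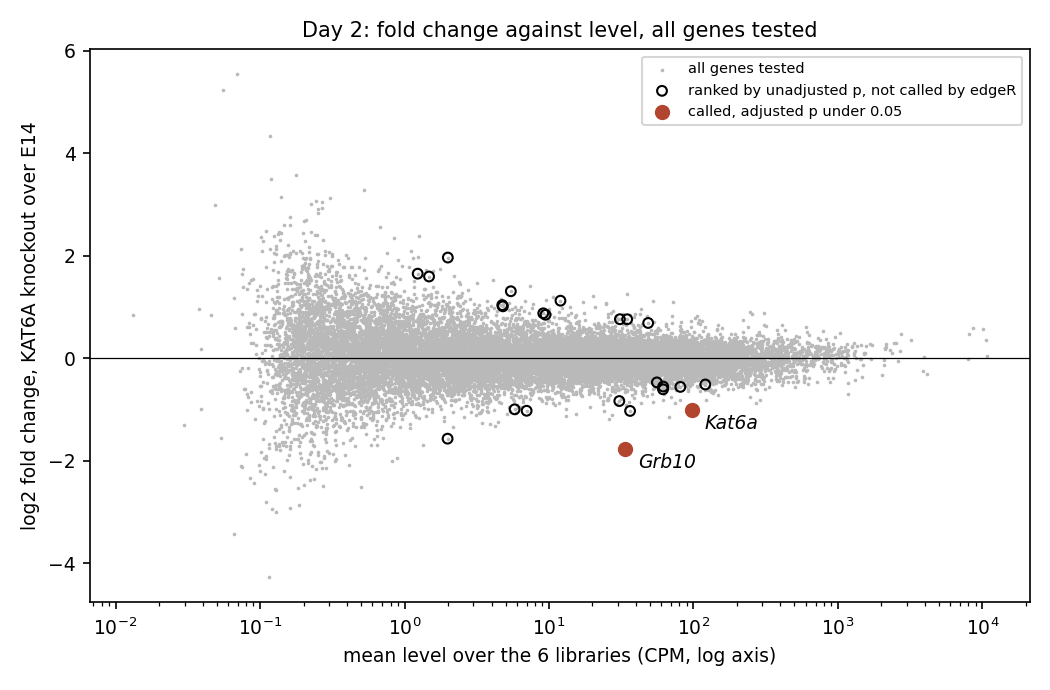
Log2 fold change of the KAT6A knockout over E14 at day 2 (vertical axis) against the mean level over the 6 libraries in CPM (horizontal log axis), for the 19594 genes tested. Filled points are the 2 called genes, Grb10 and Kat6a, and open circles are the 22 genes ranked next that edgeR did not call.

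The 2 promoters that RefSeq lists for Grb10 are shown because Grb10 had the greatest fall among called genes and because KAT6A's winged helix binds CpG-rich DNA. They are read 5′ to 3′ on the minus strand of GRCm38.p6 (an earlier build than that of the counts), from 250 bases before to 50 bases after each start, at chr11:12037371-12037670 for promoter 1 and chr11:12027922-12028221 for promoter 2. Capitals mark each CG dinucleotide.
Grb10 promoter 1: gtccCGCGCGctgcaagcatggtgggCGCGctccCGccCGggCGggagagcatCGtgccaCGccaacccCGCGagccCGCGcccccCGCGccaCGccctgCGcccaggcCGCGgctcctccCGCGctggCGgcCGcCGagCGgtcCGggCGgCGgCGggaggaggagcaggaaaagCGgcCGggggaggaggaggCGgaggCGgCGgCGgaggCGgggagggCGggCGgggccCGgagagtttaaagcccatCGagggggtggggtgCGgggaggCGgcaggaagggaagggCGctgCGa
Grb10 promoter 2: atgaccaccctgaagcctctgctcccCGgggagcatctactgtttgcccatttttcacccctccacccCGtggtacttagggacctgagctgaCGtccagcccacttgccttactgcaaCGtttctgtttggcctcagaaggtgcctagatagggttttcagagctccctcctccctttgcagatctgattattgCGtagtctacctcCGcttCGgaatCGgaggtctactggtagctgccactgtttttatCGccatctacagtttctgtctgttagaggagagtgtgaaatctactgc
Promoter 1 holds 45 CG dinucleotides and promoter 2 holds 9. Of the 32851 RefSeq promoters of this length, 1.93% hold at least as many as promoter 1 and 45.8% at least as many as promoter 2, and the median is 7. The counts pool transcripts from both promoters, so which of them lost RNA was not measured. Binding of KAT6A to either promoter was not tested.

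No gene within 1 Mb of Grb10 or Kat6a was called. Within 1 Mb of Grb10, 7 genes were tested, 0 were called and 0 had an unadjusted p under 0.05, and their median fold change was 0.28. The neighbours Ddc, an amine-synthesis enzyme gene imprinted in the heart, and Cobl, an actin regulator gene, had fold changes of 0.44 ± 0.27 and 0.25 ± 0.23 (± SE). Within 1 Mb of Kat6a, 29 genes were tested, 0 were called by edgeR and 3 had an unadjusted p under 0.05, with a median of -0.06. Over all genes tested, 10.3% had an unadjusted p under 0.05. DESeq2's calls at day 2 held none of these neighbours. Over the whole of chromosome 8, the 627 genes averaging 5 CPM or more had a median fold change of -0.12, and 70.7% of them were below 0. Every knockout library had a chromosome 8 median below its 6-library mean (-0.03, -0.06 and -0.09), and every E14 library had one above it (0.05, 0.04 and 0.10). The same median was -0.12 at day 0, -0.13 at day 6 and -0.00 at day 15, while that of all such genes stayed between -0.01 and 0.04. On chromosome 11, which holds Grb10, the median over 956 such genes was 0.08 with 37.8% below 0 at day 2, and 0.06, 0.00 and 0.17 at days 0, 6 and 15.

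Grb10 was also below E14 at other days, in libraries that the day 2 comparison did not use. At day 0 Grb10 was at 26.9, 24.4 and 24.0 CPM in the knockout and at 56.2, 71.7 and 51.4 CPM in E14. At day 6 it was at 26.1, 25.2 and 12.1 CPM in the knockout and at 129, 105 and 78.5 CPM in E14. At day 15 it was at 33.5, 42.4 and 52.6 CPM in the knockout and at 66.1, 66.5 and 63.0 CPM in E14. At every day the groups did not overlap. The fold changes at days 0, 6 and 15 were -1.25 ± 0.22, -2.30 ± 0.36 and -0.61 ± 0.25 (± SE), with unadjusted p of 4.38e-05, 3.30e-05 and 0.0344 by edgeR, and adjusted p of 0.277, 0.678 and 0.407 by edgeR, which called it at none of those days. DESeq2 called Grb10 at day 0 (adjusted p = 0.000362) and day 6 (adjusted p = 1.76e-07) and not at day 15 (adjusted p = 0.273). Kat6a likewise stood below E14 without overlap at days 0, 6 and 15, at 55.7%, 66.3% and 53.5% of the E14 mean. Non-overlap with the knockout lower was found for 4.63%, 5.78% and 13.2% of all genes at days 0, 6 and 15, and for 10.4% at day 2.

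**Figure D2:**
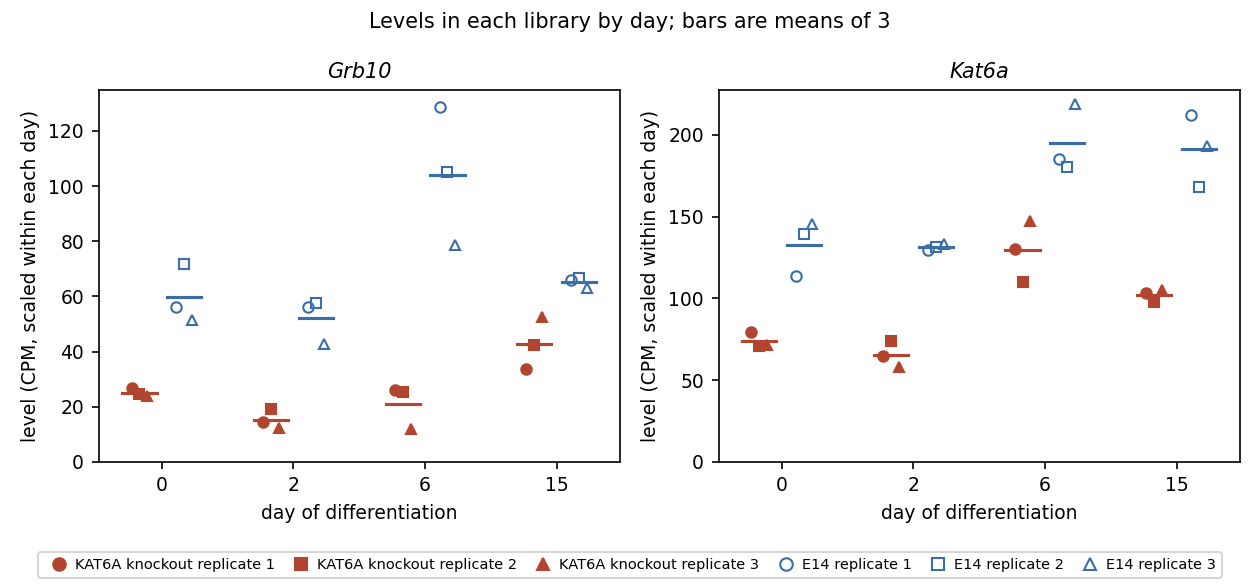
Grb10 (left) and Kat6a (right) in each library at days 0, 2, 6 and 15, in CPM scaled within each day, with filled red symbols for the KAT6A knockout and open blue symbols for E14, and bars at the mean of 3. At every day the 3 knockout libraries lie below the 3 E14 libraries for both genes.

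Without adjustment, 2011 of 19594 genes (10.3%) had a p under 0.05, 940 higher (4.8%) and 1071 lower (5.47%). That count was 1003 without E14 replicate 1, 1148 without E14 replicate 2 and 1703 to 2265 when any other library was left out. The 2 groups did not overlap for 4063 genes (20.7%), 2018 higher (10.3%) and 2045 lower (10.4%). The standard error of a log2 fold change had a median of 0.22, and for 93.7% of the 11437 genes averaging 5 CPM or more the 95% interval lay within a fold change of 2 in either direction. In that set only 30 genes had an estimate beyond 2-fold, 17 higher and 13 lower.

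The 12 genes ranked first among those higher in the knockout had fold changes of 0.69 to 1.97 and unadjusted p of 0.000103 to 0.000592, and none passed adjustment by edgeR (adjusted p = 0.414 for each). DESeq2 called all 12 (adjusted p = 0.00400 to 0.0208). Rhox6, a homeobox gene of the X-linked reproductive cluster, was at 6.35, 7.86 and 9.06 CPM in the knockout and at 2.87, 3.61 and 2.91 CPM in E14. Gata3, a transcription factor gene of trophoblast, was at 2.10, 2.27 and 1.28 CPM in the knockout and at 0.464, 0.323 and 0.964 CPM in E14. Cphx1, a homeobox gene of the early embryo, was at 1.81, 2.66 and 2.20 CPM in the knockout and at 0.580, 0.889 and 0.728 CPM in E14. Each of these was low in all 6 libraries.

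The keratin genes Krt17 and Krt42 had fold changes of 1.02 ± 0.21 and 1.13 ± 0.25 (± SE). Krt17 was at 7.44, 6.46 and 5.37 CPM in the knockout and at 2.87, 3.32 and 3.32 CPM in E14, and Krt42 at 21.2, 13.5 and 14.7 CPM in the knockout and at 6.64, 9.11 and 6.88 CPM in E14. Keratins are filaments of epithelial cells. Pnma5, a gene derived from a retrotransposon, was at 43.4, 41.4 and 32.1 CPM in the knockout and at 22.2, 23.2 and 23.4 CPM in E14. The E14 libraries were tight for this gene and all below the knockout. Ak1, adenylate kinase, was at 68.9, 56.8 and 54.3 CPM in the knockout and at 34.5, 34.7 and 42.3 CPM in E14. The rest were Lgals9 (galectin-9, 1.04 ± 0.22), Dusp27 (an inactive phosphatase, 0.76 ± 0.17), Ephx1 (an epoxide hydrolase, 0.85 ± 0.20) and the noncoding transcripts Platr16 (0.88 ± 0.20) and Gm37121 (1.97 ± 0.45). Gm37121 lies within Nrp2 on the same strand, and its reads cannot be told from those of Nrp2.

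The 12 genes ranked first among those lower in the knockout began with Grb10 and Kat6a. The other 10 had fold changes of -1.57 to -0.47 and none passed adjustment by edgeR (adjusted p = 0.414 for each). DESeq2 called 7 of these 10, all but Naf1, Tead2 and Arid1b. Chst1, a keratan sulfotransferase, was at 4.68, 3.98 and 5.18 CPM in the knockout and at 10.8, 9.70 and 7.67 CPM in E14. Hif3a, a hypoxia-inducible factor subunit, was at 26.6, 19.6 and 19.9 CPM in the knockout and at 45.6, 38.6 and 33.6 CPM in E14. Arid1b, a subunit of the BAF chromatin remodelling complex, was at 50.3, 46.6 and 49.7 CPM in the knockout and at 76.6, 71.1 and 75.0 CPM in E14. The spread within each group was small for Arid1b, which had a fold change of -0.60 ± 0.15. Tead2, the transcription factor partner of YAP, had 94.4, 105 and 99.2 CPM in the knockout and 151, 147 and 128 CPM in E14. Dpysl2, which guides growth cones, had -0.56 ± 0.12, and Naf1, an assembly factor of small nucleolar ribonucleoproteins, had -0.55 ± 0.13. The other 4 were Sptb (a spectrin, -1.03 ± 0.23), Amigo1 (a neurite adhesion protein, -0.99 ± 0.22), Tcerg1l (-1.57 ± 0.36) and Atp10a (a lipid flippase, -0.47 ± 0.11). Plekhg3 overlaps Sptb on the opposite strand. E14 replicate 3 was the E14 library nearest to the knockout for 7 of the 12 higher genes and 9 of the 12 lower genes.

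**Figure D3:**
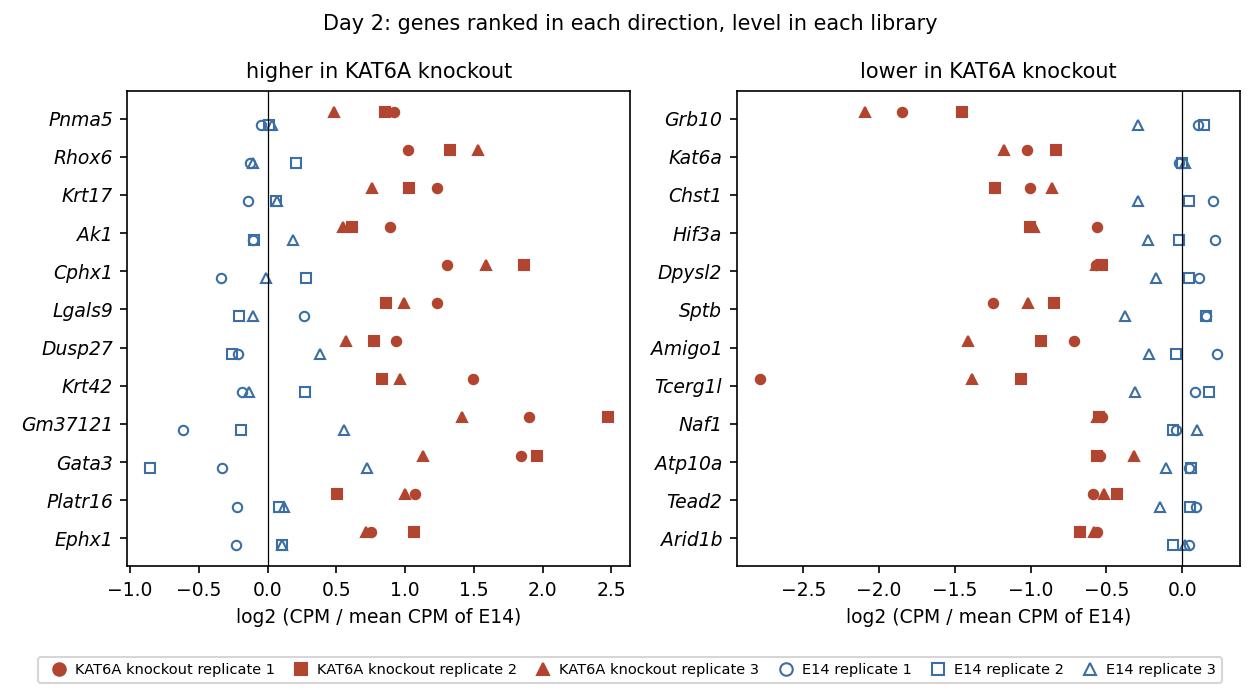
The 12 genes ranked in each direction (rows) by level in each library, as log2 of CPM over the mean CPM of E14 (horizontal axis), with filled red symbols for the KAT6A knockout above open blue symbols for E14. The groups do not overlap for any gene, which the ranking required.

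The list of naive pluripotency genes, chosen like all lists with earlier results of these data known, had 20 members, and all 20 were tested. All had fold changes above 0, with a median of 0.52, while the median over all genes tested was 0.01 and 10119 of 19594 genes were above 0. None was called by edgeR or DESeq2. Of the 20, 5 were higher at an unadjusted p under 0.05, where 4.8% of all genes were. They were Zfp42, Prdm14, Klf4, Nr0b1 and Pecam1, named after their values were seen. For 8 of the 20 the knockout libraries were all above the E14 libraries, as they were for 10.3% of all genes. Zfp42, which encodes REX1, was at 371, 308 and 290 CPM in the knockout and at 150, 147 and 220 CPM in E14. Prdm14, a transcriptional repressor of the naive state, was at 13.3, 14.4 and 11.4 CPM in the knockout and at 5.68, 6.15 and 9.62 CPM in E14. Both genes were lowest in E14 replicates 1 and 2. Klf4 was at 50.6, 33.2 and 16.8 CPM in the knockout and at 12.6, 10.9 and 24.7 CPM in E14, so its groups overlapped. Nanog, the homeobox factor, was at 250, 197 and 203 CPM in the knockout and at 154, 157 and 185 CPM in E14. The 2 most abundant members, Dppa5a and Esrrb, had fold changes of 0.51 ± 0.30 and 0.28 ± 0.36.

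E14 replicate 3 was the highest of the E14 libraries for 18 of the 20 naive genes. The mean log2 level of the list was 6.60, 6.41 and 6.12 in the knockout and 5.67, 5.66 and 6.18 in E14, so E14 replicate 3 lay above knockout replicate 3. Without E14 replicate 3 the median was 0.83 with 19 of 20 genes above 0 and 12 at an unadjusted p under 0.05. In that fit 2265 of 19973 genes had such a p. Without knockout replicate 1 it was 0.40 with 18 of 20 above 0. Genes of core pluripotency stayed closer to E14: the median of 10 genes was 0.13, with Pou5f1 at 0.07 ± 0.12, Sox2 at -0.01 ± 0.22 and Rif1 at 0.20 ± 0.15. In bulk samples, more cells in a state and more RNA per cell cannot be told apart.

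All 13 formative epiblast genes had fold changes below 0, with a median of -0.39. None was called by edgeR or DESeq2. Of the 13, 3 were lower at an unadjusted p under 0.05, where 5.47% of all genes were. They were Otx2, Sall2 and Dnmt3b, named after their values were seen. For 7 of the 13 the knockout libraries were all below the E14 libraries, as they were for 10.4% of all genes. Otx2, a homeobox regulator of the formative state, was at 121, 132 and 156 CPM in the knockout and at 205, 222 and 157 CPM in E14. Dnmt3b was at 905, 800 and 977 CPM in the knockout and at 1585, 1510 and 1238 CPM in E14. Fgf5, the classical epiblast growth factor, was at 28.7, 31.4 and 47.2 CPM in the knockout and at 62.8, 62.6 and 52.6 CPM in E14. The groups did not overlap for these genes, although for Otx2 knockout replicate 3 and E14 replicate 3 were nearly level. Sall2 was at 29.9, 47.0 and 48.7 CPM in the knockout and at 115, 108 and 56.7 CPM in E14. The mean log2 level of the list was 5.75, 5.95 and 6.04 in the knockout and 6.38, 6.33 and 6.32 in E14. Without E14 replicate 3 the median was -0.40 with 10 of 13 genes below 0.

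**Figure D4:**
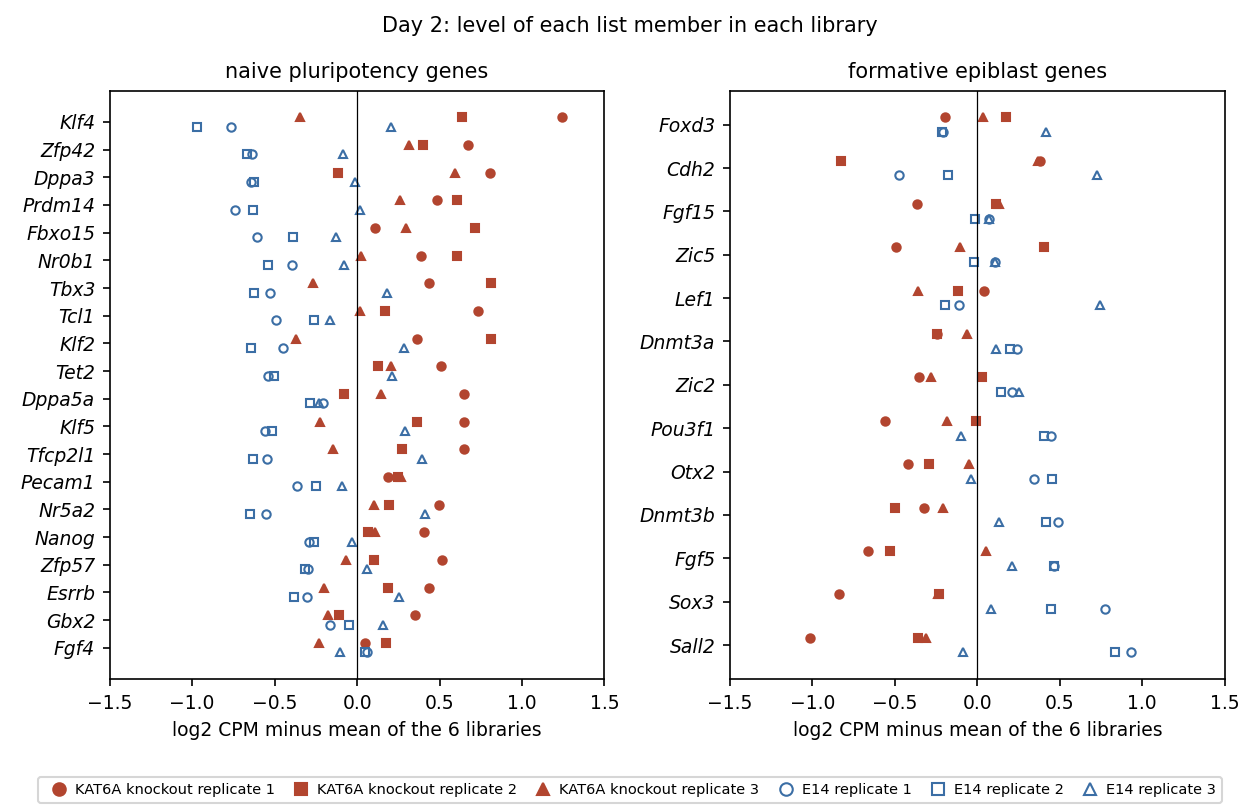
The 20 naive pluripotency genes (left) and 13 formative epiblast genes (right) in each library, as log2 CPM minus the mean of the 6 libraries, with filled red symbols for the KAT6A knockout above open blue symbols for E14. E14 replicates 1 and 2 sit at the low end for most naive genes, while E14 replicate 3 (open triangles) often lies among the knockout libraries.

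The naive genes did not stand above E14 at the other days. Their median fold change was -0.12 at day 0, -0.14 at day 6 and -0.51 at day 15. Testing the change of the knockout effect itself between days 0 and 2, 0 of 19123 genes were called by edgeR (0%), while 1562 had an unadjusted p under 0.05 (8.17%) and DESeq2 called 31. In that test all 20 naive genes had a positive change with a median of 0.65, and 11 were higher at an unadjusted p under 0.05, where 4.01% of all genes were. The same day 2 libraries enter that test, so these directions are not independent of the day 2 fold changes. Zfp42 shows the pattern: at day 0 it was at 427, 383 and 417 CPM in the knockout and at 451, 418 and 411 CPM in E14, and its effect changed by 0.96 ± 0.20 (± SE, unadjusted p = 0.000252, adjusted p = 0.513 by edgeR). For formative genes the medians were -0.17, -0.39, -0.45 and -0.53 at days 0, 2, 6 and 15, below 0 throughout, and the change between days 0 and 2 had a median of -0.30 with 9 of 13 genes below 0.

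The signalling lists were read for the pathways that act at this stage. Of 12 BMP response genes, 10 had fold changes above 0 with a median of 0.75, the highest of all lists, and 2 were higher at an unadjusted p under 0.05, where 4.8% of all genes were. Their summed level was 234, 341 and 197 CPM in the knockout and 154, 151 and 191 CPM in E14, so replicates 3 of both genotypes were nearly level. Id3, an inhibitor of differentiation and direct BMP target, was at 32.8, 77.5 and 37.4 CPM in the knockout and at 17.6, 16.7 and 27.7 CPM in E14. Id1 was at 30.2, 55.1 and 23.5 CPM in the knockout and at 22, 19.6 and 15.5 CPM in E14. Knockout replicate 2 was the highest library for both. The 14 genes of Nodal, activin and the primitive streak had a median of 0.51, with 11 above 0 and 3 below. At an unadjusted p under 0.05, 2 were higher and 1 was lower, where 4.8% and 5.47% of all genes were. The Nodal antagonist Lefty2 was at 284, 268 and 306 CPM in the knockout and at 153, 154 and 255 CPM in E14. Lefty1 had a fold change of 0.75 ± 0.23, with E14 replicate 3 among the knockout libraries. The streak genes T, Mixl1 and Eomes varied widely within groups, with standard errors of 0.61 to 1.65. The LIF and STAT3 list had a median of 0.27, WNT response 0.12 and FGF and ERK feedback -0.01. In the WNT list Tcf7, a WNT-responsive transcription factor gene, had -0.48 ± 0.17, while Notum, a secreted WNT antagonist, had 1.10 ± 0.33. In the FGF list the receptor gene Fgfr1 had -0.39 ± 0.14 and the immediate early gene Egr1 had 0.83 ± 0.35. These were the members of both lists with an unadjusted p under 0.05, 1 in each direction per list. Of all genes, 4.8% were higher and 5.47% lower at that p. None of these genes was called.

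Lineage lists held no gene called by edgeR, and DESeq2 called Gata3. The trophoblast list had a median of 0.39 over 14 tested genes, 12 above 0 and 2 below. Its most abundant members, Krt18 and Krt8, had fold changes of -0.20 ± 0.25 and 0.44 ± 0.27 (± SE). Krt18 was at 58.1, 89.2 and 72.6 CPM in the knockout and at 97.0, 107 and 48.8 CPM in E14. Tfap2c, also of this list, was at 60.0, 69.4 and 36.9 CPM in the knockout and at 29.2, 24.7 and 36.6 CPM in E14. The defining trophoblast gene Elf5 was under 0.34 CPM in all libraries. The primitive and visceral endoderm list had a median of 0.16, with 17 of 18 genes above 0. Of the 18, 2 were higher at an unadjusted p under 0.05, where 4.8% of all genes were. For 0 of them were the knockout libraries all above the E14 libraries, against 10.3% of all genes. The list's summed level varied within groups: 725, 1311 and 562 CPM in the knockout and 929, 918 and 564 CPM in E14. Its endocytic receptor gene Cubn was at 63.1, 272 and 56.9 CPM in the knockout and at 152, 162 and 41.3 CPM in E14. Knockout replicate 2 was the highest and both replicates 3 were low. The part of this variation in other results was not tested. Mesenchyme and matrix genes had a median of 0.44, blood, endothelium and heart genes 0.34, HOX and MEIS genes 0.31, neuron genes 0.04 and neural progenitor genes -0.16. Of 20 HOX and MEIS genes only 10 were abundant enough to test, and the Hox genes among them stayed under 1 CPM. Meis1, a cofactor of Hox proteins, was at 1.95, 2.07 and 1.94 CPM in the knockout and at 1.04, 1.11 and 1.36 CPM in E14.

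Chromatin regulators showed modest differences and no call besides Kat6a. The coactivator acetyltransferase genes Ep300 and Crebbp had fold changes of -0.44 ± 0.17 and -0.39 ± 0.15. Ep300 was at 254, 293 and 234 CPM in the knockout and at 368, 343 and 348 CPM in E14. The groups were apart, and both genes had an unadjusted p under 0.05. Among MLL and trithorax genes (median -0.17) the methyltransferase genes Kmt2a and Kmt2d had -0.48 ± 0.20 and -0.46 ± 0.21. Among Polycomb genes (median -0.06) Kdm2b, whose product recruits a Polycomb complex to CpG islands, had -0.64 ± 0.18, and Phf19 had 0.65 ± 0.18. Phf19 was at 26.8, 28.8 and 26.0 CPM in the knockout and at 17.1, 17.6 and 17.1 CPM in E14. The DNA methylation list had a median of -0.23: Dnmt1, Dnmt3b and Tet3 were lower and the cofactor gene Dnmt3l higher at an unadjusted p under 0.05, none called. Of all genes, 5.47% were lower and 4.8% higher at that p. The list of other acetyltransferases and deacetylases had a median of 0.02. Genes described elsewhere as KAT6A-dependent had a median of -0.10 over 7 tested members, and Cdkn2a, which restrains the cell cycle, had 0.18 ± 0.20. Genes of the 2-cell-like state had a median of 0.01.

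Of 24 imprinted genes, Grb10 alone was called. The list had a median of 0.19, 14 genes above 0 and 10 below, and 6, Grb10 among them, were lower at an unadjusted p under 0.05 where 5.47% of all genes were. Gnas, which encodes a G protein alpha subunit, was at 163, 165 and 164 CPM in the knockout and at 268, 273 and 188 CPM in E14. Cdkn1c, a maternally expressed cell-cycle inhibitor gene, was at 8.42, 7.08 and 6.96 CPM in the knockout and at 13.4, 13.1 and 11.3 CPM in E14. Its fold change of -0.75 ± 0.18 was not called by edgeR (adjusted p = 0.414) and was called by DESeq2 (adjusted p = 0.0208). Cdkn1c was also below E14 without overlap at day 0 (-1.34 ± 0.28) and day 6 (-1.47 ± 0.38), and overlapped E14 at day 15. At day 2 the KAT6A knockout differed little from the other knockouts in Cdkn1c. The fold change was 0.17 ± 0.18 over the KAT6B knockout and 0.07 ± 0.18 over the double knockout (adjusted p = 0.771 and 0.941 by edgeR). Phlda2, from the same imprinted domain, was at 14.6, 13.6 and 10.7 CPM in the knockout and at 20.0, 18.1 and 20.7 CPM in E14. The growth factor gene Igf2 and its neighbour H19 had fold changes of 0.58 ± 0.30 and 0.29 ± 0.29. Zim1, an imprinted zinc finger gene, was at 2.61, 2.95 and 3.79 CPM in the knockout and at 2.15, 1.70 and 3.52 CPM in E14 at day 2. It was lower without overlap at day 6 (-1.51 ± 0.28) and day 15 (-2.31 ± 0.34). Zim1 was not called by edgeR at either day (adjusted p = 0.725 at day 6 and 0.287 at day 15) and was called by DESeq2 at both (adjusted p = 0.000918 at day 6 and 4.73e-07 at day 15).

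Germline genes had a median of 0.50 over 14 tested members, with 6 higher at an unadjusted p under 0.05 where 4.8% of all genes were. Of the 6, 3 belong to the Rhox cluster. Rhox5 was at 94.4, 83.9 and 125 CPM in the knockout and at 56.1, 60.9 and 68.6 CPM in E14, and Rhox9 at 5.72, 4.16 and 6.06 CPM in the knockout and at 2.47, 1.99 and 3.34 CPM in E14. Stra8, which acts at the entry into meiosis, was at 4.71, 3.64 and 3.60 CPM in the knockout and at 1.83, 1.75 and 2.56 CPM in E14. The meiotic and germ cell genes Ddx4, Dazl and Sycp3 had fold changes of -0.01, 0.06 and -0.00. The germline median was 0.07 at day 0, 0.54 at day 6 and 0.88 at day 15.

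The remaining lists describe the state of the cultures. Proliferation genes (mitosis and DNA replication, median -0.01), hypoxia and glycolysis (-0.02) and the p53 response with cell-cycle inhibitors (0.09) centred near 0, although the cell-cycle inhibitor gene Cdkn1b was at 32.2, 28.6 and 29.2 CPM in the knockout and at 52.7, 53.1 and 38.8 CPM in E14 (-0.68 ± 0.19, not called). Amino acid starvation and unfolded protein genes had a median of 0.19, with the asparagine synthetase gene Asns at 423, 263 and 301 CPM in the knockout and 161, 170 and 214 CPM in E14. Cadherin and junction genes had a median of -0.24, with E-cadherin (Cdh1) at 419, 569 and 475 CPM in the knockout and 698, 705 and 614 CPM in E14. The groups were apart for both genes, and neither was called. Medians were 0.36 for immediate early and heat shock genes, 0.42 for interferon-stimulated genes, -0.15 for cholesterol and fatty acid synthesis, 0.30 for the mitochondrial genome and 0.38 for the Y chromosome. All 20 cytosolic ribosomal protein genes had fold changes above 0 with a median of 0.16, and 10 had knockout libraries that were all above the E14 libraries, where 10.3% of all genes did. Abundant structural noncoding RNAs had a median of 0.39 over 4 tested. The share of counts in Malat1, Rmrp and Rpph1 was 2.80% to 2.96% in the knockout and 2.09% to 2.42% in E14.

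**Figure D5:**
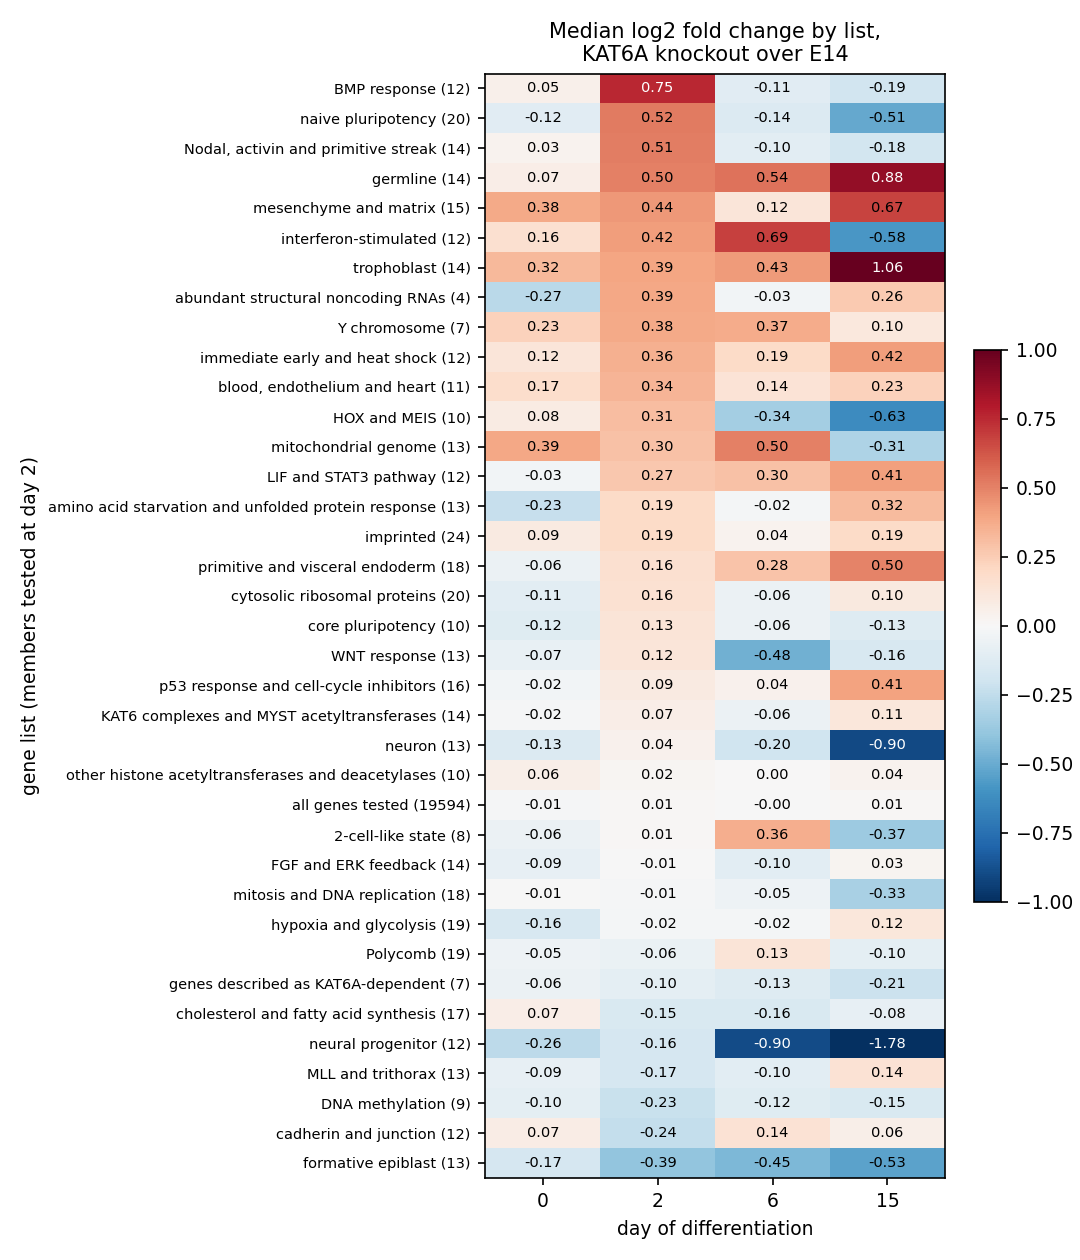
Median log2 fold change of the KAT6A knockout over E14 for the 36 gene lists and for all genes tested (rows, with the number of members tested at day 2) at days 0, 2, 6 and 15 (columns), coloured from -1 to 1. Naive pluripotency is at 0.52 at day 2 and below 0 at the other days, while formative epiblast is below 0 at all 4 days.

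The same contrast at the other days gave no call by edgeR. At day 0, 0 of 18935 genes were called (0%), 899 had an unadjusted p under 0.05 (4.75%) and DESeq2 called 7. At day 6, 0 of 20533 were called (0%), 1089 had an unadjusted p under 0.05 (5.3%) and DESeq2 called 3. With the replicate number as a block, the day 6 fit called 0 genes by edgeR and 2020 had an unadjusted p under 0.05. At day 15, 0 of 20225 were called (0%), 2304 had an unadjusted p under 0.05 (11.4%) and DESeq2 called 335. When 1 library was left out, the unadjusted counts were 536 to 2966 at day 0, 460 to 2722 at day 6 and 1052 to 2794 at day 15, so their order between days is not settled. Of the day 2 genes with an unadjusted p under 0.05, 56.9% of 1951 had the same sign at day 0, 67.8% of 1952 at day 6 and 64.2% of 1883 at day 15. Over all genes tested at both days the shares were 54.3%, 57.6% and 55.4%. These comparisons share the cell lines but no library with day 2.

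The KAT6A knockout was also set against the other knockouts of the same day, without E14. Against the KAT6B knockout 1 of 19594 genes was called (0.0051%): Luzp1, a leucine zipper gene, was at 132, 111 and 123 CPM in the KAT6A knockout and at 61.9, 58.8 and 75.6 CPM in the KAT6B knockout, and rose by 0.90 ± 0.12 (adjusted p = 0.0223 by edgeR). Luzp1 was not called with only the 2 groups fitted (adjusted p = 0.156 by edgeR) and was called in 2 of 6 fits that left out 1 library (adjusted p = 0.0139 to 0.211 by edgeR). Against the double knockout 3 genes were called (0.0153%). Luzp1, at 57.3, 58.3 and 60.4 CPM in the double knockout, rose by 1.06 ± 0.12 (adjusted p = 0.00292 by edgeR). Kdm1a, a histone demethylase gene that overlaps Luzp1 on the opposite strand, was at 248, 209 and 202 CPM in the KAT6A knockout and at 130, 129 and 108 CPM in the double knockout, and rose by 0.85 ± 0.13 (adjusted p = 0.0429 by edgeR). Magea9, a cancer-testis gene of the X chromosome, was at 1.24, 1.21 and 0.946 CPM in the KAT6A knockout and at 4.27, 4.56 and 3.94 CPM in the double knockout, and fell by 1.91 (SE 0.29, adjusted p = 0.0429 by edgeR). With the replicate number as a block shared by all 12 day 2 libraries, 5 genes were called by edgeR. They were Luzp1 (adjusted p = 0.00478 by edgeR), Kdm1a and Magea9 (adjusted p = 0.0475 each by edgeR), Tns4 and Gm14569. Tns4 and Gm14569 were lower in the KAT6A knockout, with fold changes of -1.36 ± 0.19 and -1.93 ± 0.24 (adjusted p = 0.0334 and 0.0164 by edgeR). With only the 2 groups fitted none of the 3 genes was called (adjusted p = 0.0565 for Luzp1, 0.245 for Kdm1a and 0.149 for Magea9 by edgeR). Among the 6 fits that left out 1 library, Luzp1 was called in 5 (not without double knockout replicate 1), and Kdm1a and Magea9 in 1, that without double knockout replicate 3. Against E14 the KAT6A knockout had fold changes of 0.14 ± 0.12 for Luzp1, 0.07 ± 0.13 for Kdm1a and 0.65 ± 0.30 for Magea9, none called. Magea9 was at 0.638, 0.701 and 0.806 CPM in E14, below every KAT6A knockout library.

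Grb10 levels overlapped between the KAT6A knockout and each of the other knockouts. The gene was at 26.8, 14.9 and 14 CPM in the KAT6B knockout and at 21.3, 17.2 and 19.4 CPM in the double knockout. Every library of both was below every E14 library of day 2 (56.0, 57.7 and 42.7 CPM), so low Grb10 was not particular to the KAT6A knockout. The KAT6A knockout differed from them by -0.28 ± 0.23 and -0.34 ± 0.23 (± SE, adjusted p = 0.695 and 0.745 by edgeR). Kat6a itself was at 72.1, 105 and 77.9 CPM in the double knockout, and the KAT6A knockout differed from it by -0.38 ± 0.14 (adjusted p = 0.550 by edgeR). The naive list had a median of 0.65 in the KAT6A knockout over the KAT6B knockout, with all 20 genes above 0 and 10 higher at an unadjusted p under 0.05, where 4.4% of all genes were. Over the double knockout its median was 0.07 (0.05 with the block), with 11 genes above 0 and 9 below. The formative list had medians of -0.18 over the KAT6B knockout and 0.29 over the double knockout (0.30 with the block).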

How the data were processed

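Counts per gene were deposited by the authors as 1 unnormalized table. HISAT2 and GRCm39 are named in the submitters' processing notes. Which program made the counts, whether it used strand, and which annotation it read are not given in the sources used. Libraries were made with a strand-specific, ribosomal RNA-depleted protocol, per the labels' protocols. Of 36983 entries, 48 repeat a gene identifier and were left out. The deposited counts, 34.4 to 51.1 M per library, went into edgeR 4.0.16 (R 4.3.3) with trimmed-mean scaling, expression filter (minimum count 10, minimum total 15), robust quasi-likelihood fit of all 12 libraries of a day and Benjamini-Hochberg adjustment over all genes tested. The change of the effect between days 0 and 2 was fitted in the 12 libraries of both genotypes and days. The biological coefficient of variation at day 2 was 21.0%. List means use log2(CPM + 1). Libraries of a group differed beyond sampling noise. The chi-square per degree of freedom was 6.63 for E14 replicates 1 and 2 and 22.4 to 54.6 for the other pairs. The labels name independent differentiation experiments, so p-values measure the spread between them, pooled over the libraries of a fit. The spread between clones was not measured, as the number of clones is not given.

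The named genes are Kat6a, Kat6b, and 12 genes per direction at day 2 (called genes by size, then the lowest unadjusted p, with a mean of at least 1 CPM and no overlap between groups). To them come called members of each list, or its 2 most abundant members (printed where a list is described in detail), and called genes of the other comparisons. Others are named after their values were seen. The members and the 36 lists (493 genes) were chosen with earlier results of these data known. Same-numbered libraries of the KAT6A and double knockouts deviated together (r = 0.13, 0.19 and 0.31), so the numbers were taken as pairs in that comparison only, whose blocked fit is given beside the unblocked one. That fit held all 12 day 2 libraries, so its replicate term was shared with E14 and the KAT6B knockout. Same-numbered KAT6A and KAT6B knockout libraries did not deviate together (r = -0.10, -0.08 and -0.14). Against E14 at day 6 the same-numbered correlations were -0.17, 0.35 and 0.56, mixed in sign, and the numbers were not taken as pairs there. Promoters are from RefSeq (GRCm38.p6). Alternatives were relative-log-expression size factors, other filters on low counts, DESeq2 1.42.0, only the groups compared, a replicate block, and leaving out each library.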

Additional observations from a re-analysis of the deposited data

How the results depend on the processing

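Settings moved the count of called genes as follows. The 2 calls of the KAT6A knockout against E14 at day 2 were 2 with relative-log-expression size factors, with no filter on low counts, with at least 1 CPM in 3 libraries and with only the 2 groups, 35 with DESeq2 and 0 to 1 when 1 library was left out. The replicate numbers were not taken to pair the samples: the correlation of deviations between same-numbered libraries at day 2 was 0.002, 0.079 and 0.080. With the replicate block 1 gene (Grb10) was called at day 2 (Kat6a adjusted p = 0.0573 by edgeR), and 5 against the double knockout. At day 0 the count of 0 became 2 with no filter, 7 with DESeq2 and 0 to 1 when 1 library was left out. DESeq2 called 3 at day 6, 335 at day 15 and 31 for the change between days 0 and 2, where leaving out 1 library gave 0 to 2 (2 without E14 day 2 replicate 3). Against the KAT6B knockout the count of 1 became 2 with at least 1 CPM in 3 libraries, 15 with no filter, 136 with DESeq2, 0 with only the 2 groups and 0 to 1 when 1 library was left out. Against the double knockout the count of 3 became 11 with no filter, 112 with DESeq2, 0 with only the 2 groups and 0 to 35 when 1 library was left out, 35 of them without double knockout replicate 3. No named gene changed sign under any of these settings while called. The naive median of 0.52 was 0.40 to 0.83 when 1 library was left out, 0.83 without E14 replicate 3. The cause of these differences was not tested. With 3 libraries per group, the median standard error of 0.22 on the log2 scale limits what could be called.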
